A study of Mus musculus with 2 samples.

Results

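Heat-shock chaperones are proteins that bind unfolded protein chains and help them fold. Their genes were described here across the cell types of regenerating mouse muscle. The list held 10 genes of the 19169 in the table, and all 10 were measured. It is split into 6 genes known as stress-inducible (Hspa1a, Hspa1b, Dnajb1, Hsph1, Hsp90aa1 and Hspb1) and 4 known as constitutive, meaning that unstressed cells also make them (Hspa8, Hspd1, Hspe1 and Dnaja1). The genes were chosen by name with their levels by cell type and their KO and WT values already known, so those levels and differences are descriptions and their shared direction is not evidence of its own.

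The data were single-cell RNA libraries of gastrocnemius, a calf muscle, taken on day 14 after cardiotoxin (CTX), a protein of snake venom that kills muscle fibers when injected. There were 2 libraries. The WT-CTX library came from wild-type mice and the GSDME-KO-CTX library (KO) from mice knocked out for the pore-forming protein gasdermin E. The methods give male mice throughout and C57BL/6J for the WT mice. Both groups had received CTX, and no library of uninjured muscle was analysed here. The methods gave 5 mice per group without saying whether they were pooled. The muscle was minced and digested with enzymes at 37°C before capture, so the RNA of every cell had passed through that step.

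Each genotype was therefore 1 library, and no difference between genotypes could be tested. Genotype, library preparation, digestion and sequencing cannot be told apart in these data. The intervals given are 95% intervals of counting error and cover nothing else. There were 6354 WT cells with 44758518 UMIs (unique molecular identifiers, each marking 1 captured RNA molecule) in all, the median cell having 5740. For KO there were 7078 cells and 50930010 UMIs, and the median cell had 5962.5. Levels are UMIs per 1000000 UMIs of a class and library (CPM). Gsdme itself had 225 UMIs (5.03 CPM) in WT and 237 (4.65 CPM) in KO, so its RNA did not separate the libraries and every direction rests on the labels. In each of the 10 main cell classes the median log2 ratio over all genes lay within 0.1 of 0.

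The heat-shock response is the best-known regulation of these genes. Unfolded protein draws chaperones away from the transcription factor HSF1, which then binds heat shock elements in their promoters. HSP70 proteins (Hspa1a, Hspa1b and Hspa8) hold client proteins in a cycle driven by ATP. HSP40 proteins (Dnajb1 and Dnaja1) bring clients to HSP70 and start the cycle. Hsph1, an HSP110 protein, swaps the nucleotide on HSP70. Hsp90aa1 encodes the stress form of HSP90, which matures kinases and receptors, and Hspb1 encodes a small heat-shock protein that holds clients without ATP. Hspd1 and Hspe1 encode the chamber and the lid of the mitochondrial chaperonin.

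The promoters are shown because 2 of the members are almost the same gene. A heat shock element is built from GAA units facing alternate ways, and it was searched as GAANNTTC or TTCNNGAA, each of which reads the same on both strands. RefSeq promoter windows (GRCm38.p6), running from 250 bases before to 50 bases after a start site, were given for 8 of the 10 members, as 13 windows. At least 1 window of 7 members held the motif, all but Dnajb1 among the 8. Of all 32851 promoter windows 15.1% held it. That share is per window and not a like measure, since some members had several windows. Hspa8 and Hsp90aa1 had no window. Matches are letters in a window and say nothing of binding.

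The 250 bases before the start sites of Hspa1a (chr17:34972157-34972406, minus strand) and Hspa1b (chr17:34959239-34959488, minus strand) follow, with the motif in capitals.

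Hspa1a: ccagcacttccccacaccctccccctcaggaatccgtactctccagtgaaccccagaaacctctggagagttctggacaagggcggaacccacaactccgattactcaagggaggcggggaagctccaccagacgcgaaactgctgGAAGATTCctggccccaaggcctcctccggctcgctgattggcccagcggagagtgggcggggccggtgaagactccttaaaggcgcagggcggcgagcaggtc

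Hspa1b: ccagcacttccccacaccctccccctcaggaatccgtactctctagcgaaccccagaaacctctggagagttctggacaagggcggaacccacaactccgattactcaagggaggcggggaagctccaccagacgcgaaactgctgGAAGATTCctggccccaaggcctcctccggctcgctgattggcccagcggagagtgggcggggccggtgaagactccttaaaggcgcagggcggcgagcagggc

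Counted from 1 at the 5′ end, Hspa1a differed from Hspa1b there only by C44T, T47C and T249G. The transcripts are also alike. Of the stretches of 90 bases in the GENCODE transcripts, 49.3% of those in Hspa1a also stood in Hspa1b, and 49.6% of those in the first 500 bases. Reads from such stretches cannot be given to 1 gene, so the level of each gene is uncertain. The sum of the pair does not depend on how such reads were shared out between them. It is too low, however, if they were left out of the counts.

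Longer runs of the motif stood in the windows of 3 members, Hspd1, Hspe1 and Hsph1, which held at least 3 adjoining units. Such runs stood in 0.603% of all windows, again a share per window and not per gene. Hspd1 and Hspe1 lie head to head on chromosome 1 and share theirs. The 30 bases around the Hspe1 run (chr1:55088053-55088082, plus strand) and around the motifs of Hspb1 (chr5:135887801-135887830, plus strand) and Dnaja1 (chr4:40722333-40722362, plus strand) are given with the units in capitals.

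Hspe1: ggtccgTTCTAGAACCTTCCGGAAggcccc

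Hspb1: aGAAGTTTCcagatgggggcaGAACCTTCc

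Dnaja1: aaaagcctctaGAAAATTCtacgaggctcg

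Cell classes were named from markers after clustering with the chaperone genes left out. The 10 classes with at least 50 cells in each library were fibro-adipogenic progenitor (FAP)-like, endothelial-like, macrophage-like, pericyte-like, tenocyte-like, muscle stem cell (MuSC)-like, Schwann-like, dendritic-like, T cell-like and lymphatic endothelial-like. They ran from 1697 WT and 2171 KO FAP-like cells down to 83 and 79 lymphatic endothelial-like cells, with 82 and 87 T cell-like cells. The macrophage-like class held 833 WT and 1006 KO cells, and the endothelial-like class 1238 and 1212. Pax7 and Myf5 were among the leading genes of MuSC-like cells, Cd3g and Cd3e of T cell-like cells, and Scx and Tnmd of tenocyte-like cells. No naming marker was among the 10 leading genes of any FAP-like, endothelial-like or macrophage-like cluster. Those were named from the mean log2 fold of their markers. The FAP markers summed to 60823 CPM in WT FAP-like cells and to 80811 CPM in WT tenocyte-like cells. The tenocyte markers summed to 520 and 20969 CPM there. The pericyte-like class was named from markers of pericytes and smooth muscle together. Its cluster 13 (184 WT and 200 KO cells) held the smooth-muscle genes Myh11, Cnn1 and Acta2 among its leading genes. Mature muscle-like cells, from a tissue that is mostly fiber, numbered 30 and 63. Cells of no named class numbered 799 in WT and 847 in KO.

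In the WT library the inducible genes were far from even across classes. Hspa1a and Hspa1b, the stress-inducible HSP70 pair, together gave 6337 CPM in macrophage-like, 5714 in endothelial-like and 4737 in pericyte-like cells. The same pair gave 886 CPM in FAP-like, 689 in T cell-like and 620 in tenocyte-like cells. Hspa1a alone spanned 10.5-fold, from 3224 CPM in macrophage-like to 308 in T cell-like cells. The macrophage-like and endothelial-like levels (3224 and 3221 CPM) had overlapping intervals, as did the Schwann-like and dendritic-like levels (754 and 688) and the tenocyte-like and T cell-like levels. The other neighbours in the order of Hspa1a were apart by more than counting error.

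**Figure D1:**
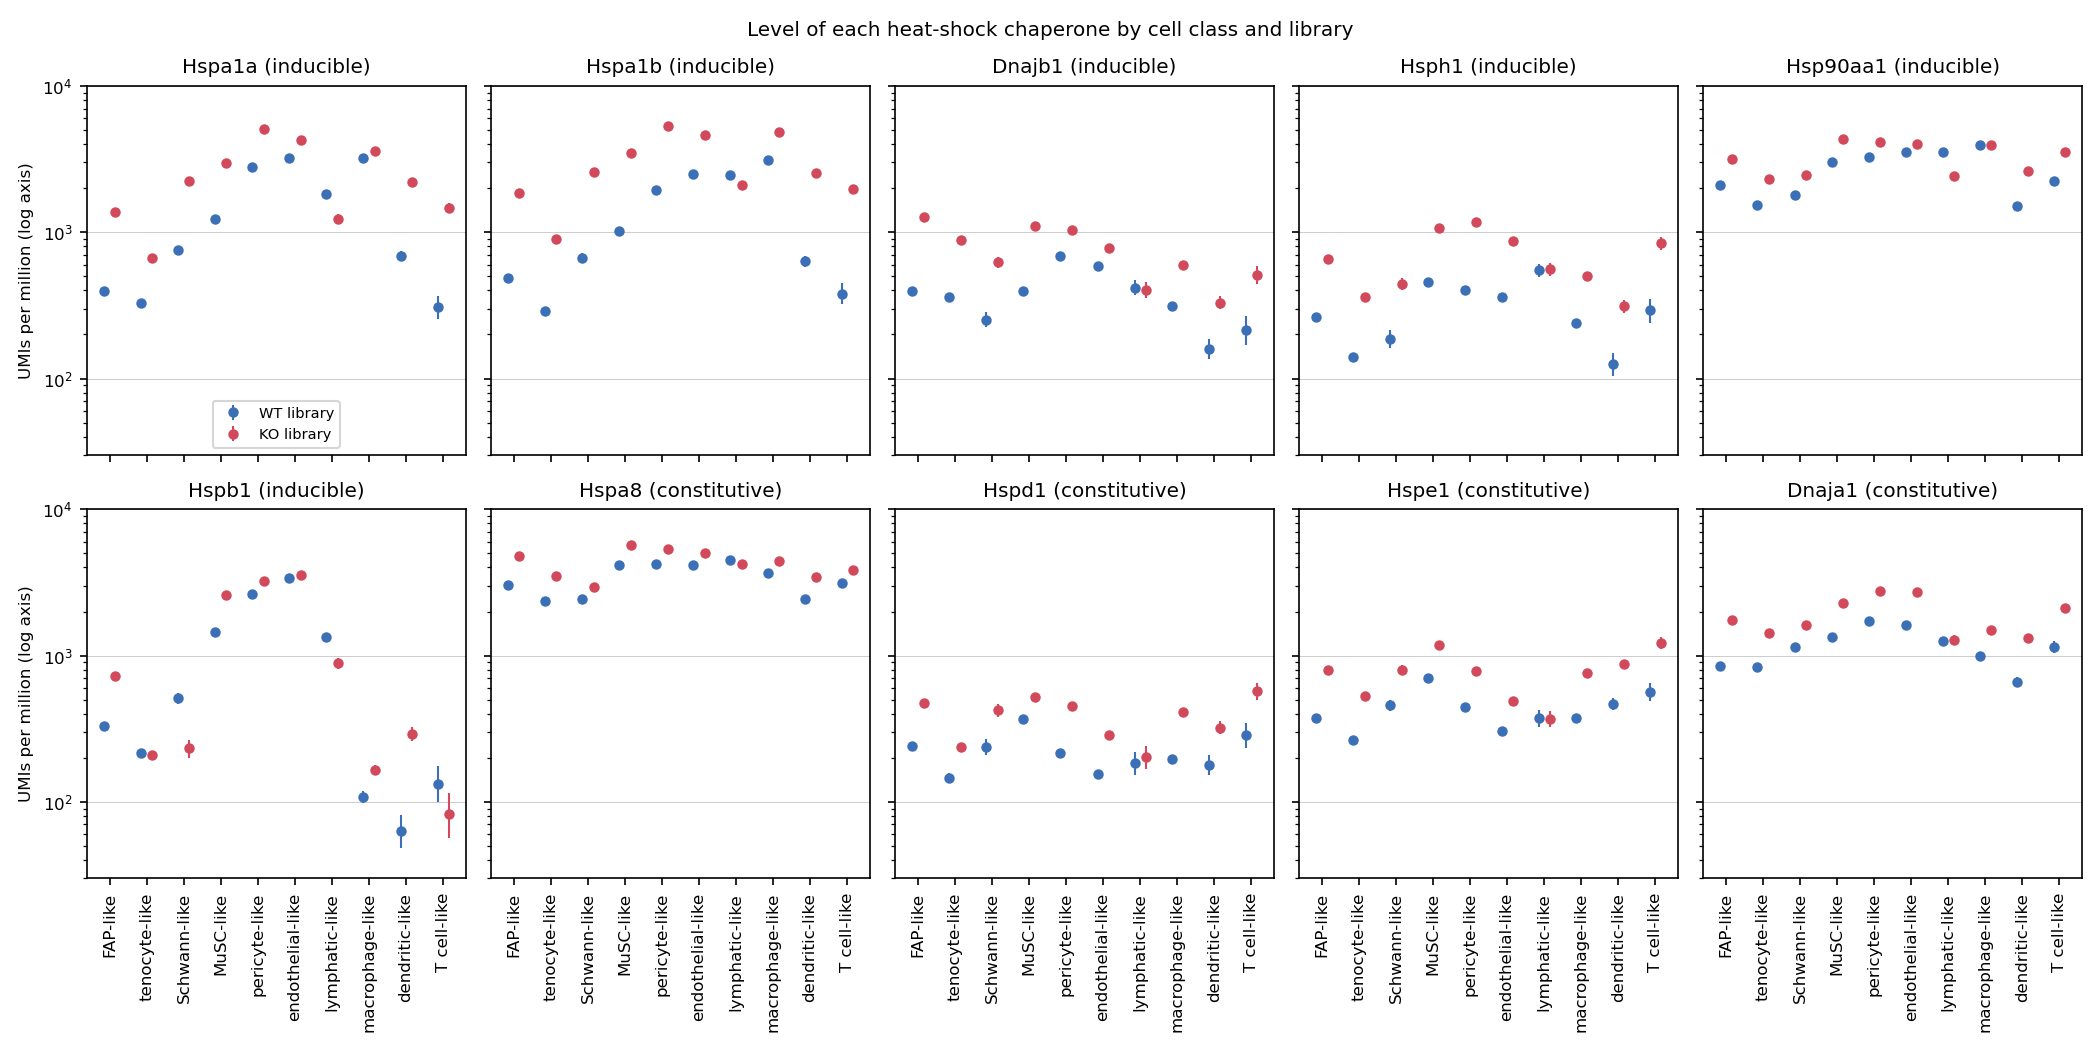
Level of each of the 10 chaperone genes, in CPM on a log axis, in the 10 main cell classes (lymphatic-like stands for lymphatic endothelial-like). Blue points are the WT and red points the KO library, and bars are 95% Poisson intervals. Hspa8 spans 1.9-fold over the WT classes and Hspb1 53.7-fold.

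Hspa8, the constitutive HSP70, had the smallest span of the members in WT. It lay between 2375 CPM in tenocyte-like and 4536 CPM in lymphatic endothelial-like cells in WT, a span of 1.9-fold, and in KO its span was 1.93-fold, where that of Hsp90aa1 was 1.86-fold. Hspb1 was the most uneven. Its WT level was 3379 CPM in endothelial-like, 2637 in pericyte-like, 1440 in MuSC-like and 1342 in lymphatic endothelial-like cells. It was 108 CPM in macrophage-like and 63.0 in dendritic-like cells. Hspb1 and Hspa1a were thus ordered differently over the classes, with macrophage-like cells near the bottom for Hspb1 and at the top for Hspa1a. Endothelial markers summed to 8969 CPM in WT endothelial-like, 6115 in pericyte-like and 1896 in MuSC-like cells. The part of endothelial RNA in the WT chaperone levels of the pericyte-like and MuSC-like classes was not tested.

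Hspa1a stood at 3224 CPM beside 108 of Hspb1 in WT macrophage-like cells, and at 3221 beside 3379 in WT endothelial-like cells. With each cell thinned to 1000 UMIs, a UMI of Hspb1 was found in 83.1% of WT endothelial-like cells (exact 95% interval, 80.9 to 85.2) and in 4.79% of WT macrophage-like cells (3.38 to 6.57). Without thinning the shares were 93.9% and 14.9%, at median depths of 4472 and 5226 UMIs. A UMI of Hspa1a or Hspa1b was found in 72.8% of the thinned WT macrophage-like cells (69.5 to 76.0) and in 25% of the T cell-like cells (16.0 to 35.9). Cells under 1000 UMIs were left out, 686 in WT and 633 in KO.

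The co-chaperones and the chaperonin varied less. Dnajb1 lay between 159 and 689 CPM over the WT classes and Hsph1 between 126 and 550 CPM. Dnaja1 lay between 662 CPM in dendritic-like and 1728 CPM in pericyte-like cells. Hspd1 and Hspe1 were both highest in MuSC-like cells, at 369 and 706 CPM, and both lowest in tenocyte-like cells, at 145 and 266 CPM. For Hspd1, 8 of the 9 neighbouring pairs in the WT order had overlapping intervals.

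In WT the balance of inducible to constitutive RNA lay above 1 in some classes and below 1 in others. The kit tags the 5′ end, so molecules are counted without regard to their length, and UMIs of different genes were summed as they were. If reads from the stretches shared by Hspa1a and Hspa1b were left out, the inducible sums are too low. The value of 1 is thus no fixed boundary. In WT, endothelial-like cells had 2.17 inducible UMIs per constitutive UMI (95% interval, 2.15 to 2.19) and macrophage-like cells 2.1 (2.06 to 2.13). Pericyte-like cells had 1.78, lymphatic endothelial-like cells 1.60 and MuSC-like cells 1.16. Schwann-like cells had 0.975, with an interval (0.936 to 1.02) that held 1. FAP-like cells had 0.879 (0.869 to 0.889), tenocyte-like cells 0.792 and T cell-like cells 0.698. A single gene made up much of each sum. In WT FAP-like cells Hsp90aa1 gave 27642 of the 52365 inducible UMIs, and Hspa8 gave 40359 of the 59583 constitutive UMIs. The balance without these genes was not computed.

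In the KO library the balance was higher in 7 of the 10 classes. It was 1.15 in FAP-like cells, 1.60 in MuSC-like, 1.48 in Schwann-like against 0.975 in WT, 1.40 in dendritic-like against 0.846, and 1.08 in T cell-like cells. Tenocyte-like cells, at 0.936, were the only main class below 1 in KO. It was lower in macrophage-like (1.92), lymphatic endothelial-like (1.26) and endothelial-like cells (2.13). The last value lay close to that of WT, with intervals of 2.11 to 2.15 in KO and 2.15 to 2.19 in WT.

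**Figure D2:**
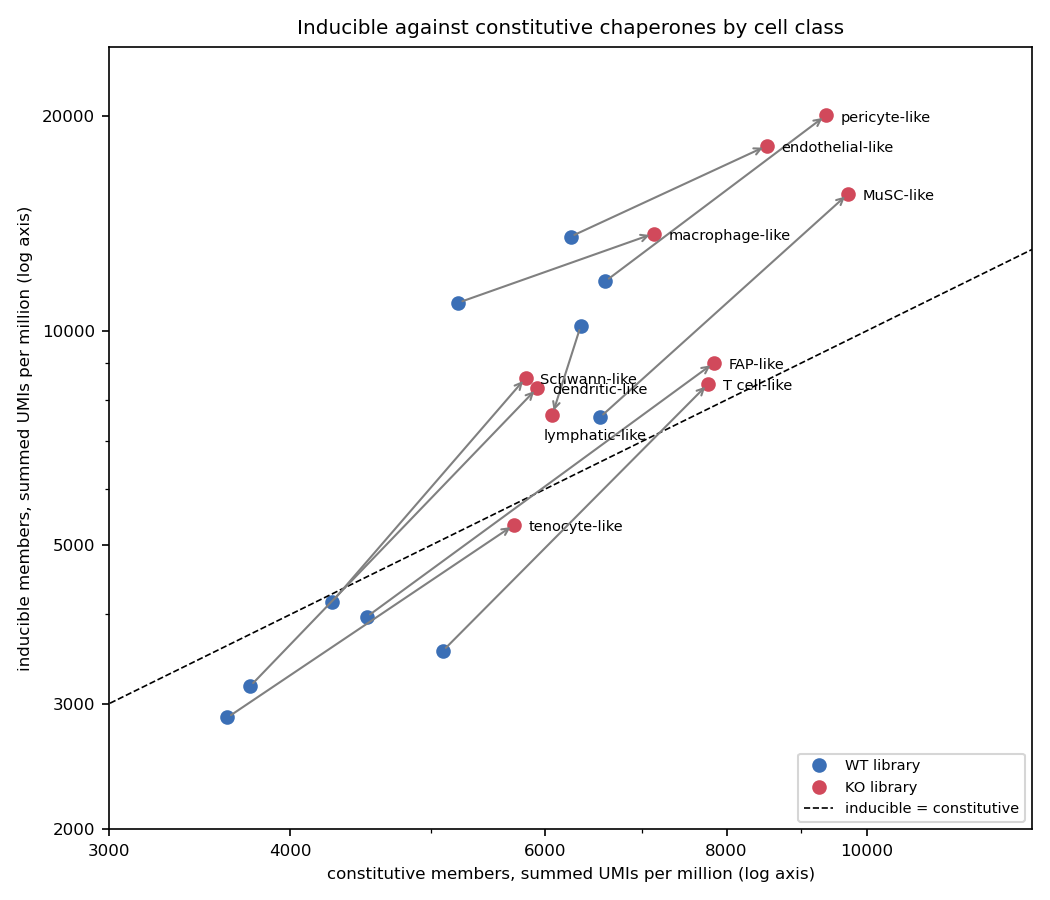
Summed CPM of the 6 inducible genes (vertical, log axis) against those of the 4 constitutive genes (horizontal, log axis) in each main cell class. An arrow runs from the WT (blue) to the KO library (red), and the dashed line marks equal sums. In 9 of the 10 classes the arrow points up and to the right, and in lymphatic endothelial-like cells it points down.

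In FAP-like cells, the fibroblast-like cells that can turn into fat cells, every member was higher in KO. Their inducible sum was 3969 CPM in WT and 9013 CPM in KO, which is 1.18 (1.17 to 1.2) as the log2 of KO over WT, called the log2 ratio from here on. Their constitutive sum was 4516 and 7840.5 CPM (log2 ratio 0.80, 0.78 to 0.81). All 10 genes were at least 1.5 times higher in KO, where 3.86% of the 12553 genes with at least 10 UMIs in both libraries were. That contrast took part in choosing the genes, so the count is no test. At a limit of 2-fold the count was 7 (0.86% of all), and it was 1 in endothelial-like (1.17%) and 3 in macrophage-like cells (1.15%). Over all cells together 7 of the 10 passed 1.5-fold (4.82% of all). The median log2 ratio of the 10 in FAP-like cells was 1.11, against -0.06 over all genes of that class.

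Within FAP-like cells the HSP70 pair and its HSP40 partner differed most. Hspa1a was at 397 CPM (386 to 408) in WT and 1373 (1356 to 1390.2) in KO, with a log2 ratio of 1.79. Hspa1b was at 490 and 1845 CPM, with a log2 ratio of 1.91. The pair together was at 886 and 3218 CPM, with a log2 ratio of 1.86 (1.83 to 1.89). Dnajb1, the HSP40 that works with HSP70 on aggregates, was at 396 and 1266 CPM, with a log2 ratio of 1.68. Each of these was more than 3 times higher in KO.

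The other members of the FAP-like class differed less. Hsph1 was at 263 CPM in WT and 659 in KO (log2 ratio 1.33), and Hspb1 at 329 and 723 (1.14). Hspe1 was at 372 and 791 CPM (1.09), Dnaja1 at 842 and 1763 (1.07), and Hspd1 at 242 and 477 (0.98). Hspa8, at 3059 and 4809 CPM, had a log2 ratio of 0.65. Hsp90aa1, at 2095 and 3147 CPM, had one of 0.59. The genes with the highest WT levels in these cells, Hspa8 and Hsp90aa1, were thus those with the smallest log2 ratios.

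**Figure D3:**
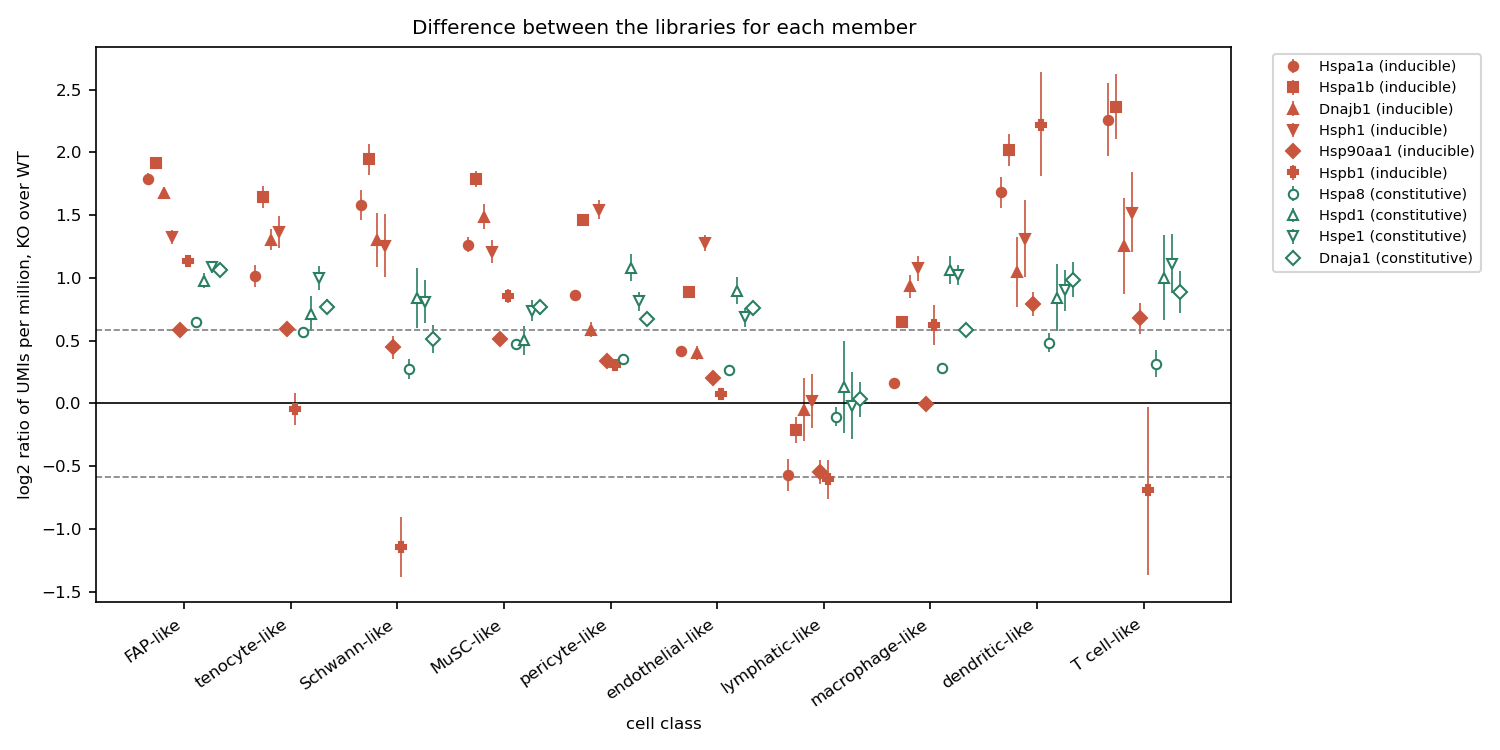
Log2 ratio of CPM, KO over WT, for each chaperone gene in the 10 main cell classes. Filled red marks are inducible and open green marks constitutive genes, bars are 95% intervals of counting error, and dashed lines mark 1.5-fold. FAP-like marks lie between 0.59 and 1.91, and lymphatic endothelial-like marks between -0.60 and 0.13.

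The ratios of dendritic-like and T cell-like cells depended on the clustering, which also changed the cells in these classes. In dendritic-like cells, which present antigen, the inducible sum was 3174 CPM in WT and 8308 in KO (log2 ratio 1.39, 1.33 to 1.45). It was 0.95 when clustered without Harmony, with 169 WT and 161 KO cells and Top2a and Mki67 among the leading genes. At resolution 0.4 it was 0.94, with 229 and 273 cells and Ear2 and Lyz1 among the leading genes. In the main clustering, with 115 and 127 cells, 9 of the 10 genes were at least 1.5 times higher in KO (9.85% of all genes tested in that class). In T cell-like cells the inducible sum was 3557 and 8426 CPM (log2 ratio 1.24, 1.15 to 1.34), and 8 of the 10 were higher by that fold (9.79% of all). That log2 ratio was 0.78 at resolution 0.4 and 1.63 for the mean over cells. At resolution 0.4 the class had 163 WT and 147 KO cells, with Gzma and Nkg7 among its leading genes. The HSP70 pair in T cell-like cells had 264 UMIs in WT and 1374 in KO, or 689 and 3432 CPM.

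MuSC-like cells, the stem cells that rebuild fibers, had an inducible sum of 7562 CPM in WT and 15563 in KO. The log2 ratio was 1.04 (1.02 to 1.07), and that of the constitutive sum was 0.57 (0.54 to 0.60), from 6544 to 9706 CPM. Here 7 of the 10 genes were at least 1.5 times higher in KO (11.4% of all genes tested in that class). Hspa1b was at 1014 and 3502 CPM and Hspa1a at 1232 and 2959, and the pair had a log2 ratio of 1.52. Hspb1 was at 1440 and 2611 CPM. Part of the class, the deeply sequenced cluster 19, also carried endothelial markers. Without it the inducible log2 ratio was 1.05 and the constitutive 0.45.

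In tenocyte-like cells, the fibroblasts of tendon, the inducible sum was 2868 CPM in WT and 5343 in KO (log2 ratio 0.90, 0.87 to 0.93), and 8 of the 10 genes were at least 1.5 times higher in KO (9.76% of all). In pericyte-like cells, a class of pericytes and smooth muscle, it was 11736 and 20044 CPM (0.77, 0.76 to 0.79), and 7 of the 10 were (6.27% of all). Cluster 8, the larger of the 2 clusters of that class, also carried endothelial markers. Without it the inducible log2 ratio was 0.99, a value of cluster 13 with its smooth-muscle genes. Schwann-like cells had 4169 and 8589 CPM (1.04, 0.99 to 1.10), with 6 of the 10 higher by 1.5-fold (9.88% of all).

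Endothelial-like and macrophage-like cells had high WT levels and smaller ratios. In endothelial-like cells the inducible sum was 13550.4 CPM in WT and 18166 in KO (log2 ratio 0.42, 0.41 to 0.43), and the constitutive log2 ratio was 0.45 (0.43 to 0.47). There 5 of the 10 genes were at least 1.5 times higher in KO (5.28% of all genes tested). They were Hspa1b, Hsph1, Hspd1, Hspe1 and Dnaja1. The HSP70 pair was at 5714 and 8923 CPM (log2 ratio 0.64). Hsph1 was at 359 and 871 CPM, whereas Hspb1 was at 3379 and 3560 CPM with a log2 ratio of only 0.08 (0.05 to 0.10).

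In macrophage-like cells the inducible sum was 10950.1 CPM in WT and 13684 in KO (log2 ratio 0.32, 0.31 to 0.34), and the constitutive log2 ratio was 0.45 (0.42 to 0.47). There 7 of the 10 genes were at least 1.5 times higher in KO (4.81% of all genes tested). Hsp90aa1 was at 3952 and 3930.5 CPM (log2 ratio -0.01, -0.04 to 0.02). Hspa1a was at 3224 and 3610 CPM and Hspa1b at 3113 and 4873, and the pair had a log2 ratio of 0.42. Hsph1 had the highest log2 ratio in this class (1.08), followed by the chaperonin genes Hspd1 (1.06, 197 and 410.5 CPM) and Hspe1 (1.02, 376 and 763 CPM) and by Dnajb1 (0.93). Markers of red blood cells summed to 342 CPM in WT and 609 in KO macrophage-like cells, 1322 and 5638 in endothelial-like cells and 66.3 and 566 in FAP-like cells. The part of this difference in the results was not tested.

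Lymphatic endothelial-like cells went the other way in summed UMIs. The inducible sum was 10148 CPM in WT and 7626 in KO (log2 ratio -0.41, -0.47 to -0.36). None of the 10 genes was at least 1.5 times higher in KO, where 11.9% of all genes tested were, and 1 (Hspb1, 1342 and 883 CPM) was at least 1.5 times lower, as were 6.33% of all. A single WT cell of 47138 UMIs gave 1175 of the 6676 inducible UMIs. The mean over cells, which weights each cell alike, was 8114 CPM in WT and 8973 CPM in KO, the opposite direction. With 83 WT and 79 KO cells in the class, its direction depended on that choice.

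The members did not split cleanly into an inducible and a constitutive group by their ratios. Hspa8 had the lowest ratio of the 4 constitutive genes in 10 of 10 main classes. The ratio of Hsp90aa1 was below those of Hspa1b, Dnajb1 and Hsph1 in 10 of 10. Hspd1, Hspe1 and Dnaja1 had ratios nearer to those of Hsph1 than Hspa8 did in FAP-like cells, at 0.98, 1.09 and 1.07 beside 1.33. Over all cells the log2 ratios were 0.44 for Hspa8, 0.34 for Hsp90aa1, 0.24 for Hspb1 and 1.26 for Hsph1.

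The make-up of the HSP70 pair differed between the libraries. Hspa1a was 53.9% of the pair's UMIs in WT (53.6 to 54.2) and 45.5% in KO (45.3 to 45.7) over all cells. It was lower in KO in 10 of 10 main classes. Put another way, the ratio of Hspa1b exceeded that of Hspa1a in all of them, which is the same fact. In endothelial-like cells the share was 56.4% in WT and 48.3% in KO, in pericyte-like cells 59.0% and 48.7%, and in macrophage-like cells 50.9% and 42.6%. In FAP-like cells it was 44.8% and 42.7%, and in T cell-like cells 44.7% and 42.9%, where the intervals (38.6 to 50.9 and 40.2 to 45.5) overlapped. How reads from the shared stretches of the transcripts were counted is not given in the sources used here.

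Hspb1 was the member whose direction varied most. It had the lowest ratio of the 6 inducible genes in 6 of 10 main classes. It was at 511 CPM in WT and 232 in KO in Schwann-like cells, a log2 ratio of -1.14 (-1.38 to -0.91), the only member there at least 1.5 times lower in KO (7.0% of all genes tested). It was at 63.0 and 293 CPM in dendritic-like cells, a log2 ratio of 2.22 (1.82 to 2.64), from 60 and 326 UMIs. The shares of dendritic-like cells with a UMI of Hspb1 were close, at 14.8% in WT and 15.7% in KO without thinning. With thinning they were 4.55% (1.49 to 10.3) and 8.13% (3.97 to 14.4). In tenocyte-like cells Hspb1 was at 215 and 208 CPM. In T cell-like cells it was at 133 and 82.4 CPM, from 51 and 33 UMIs (log2 ratio -0.69, -1.37 to -0.03). That level was also at least 1.5 times lower in KO (13.5% of all genes tested). The shares of T cell-like cells with a UMI of Hspb1 were close, at 10.98% in WT and 11.49% in KO without thinning. With thinning they were 5.0% (1.38 to 12.3) and 3.49% (0.725 to 9.86), with overlapping intervals. The direction of Hspb1 in T cell-like cells thus rested on few UMIs.

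Clusters within a class differed from each other. The FAP-like cells fell into 4 clusters. Cluster 1, led by Hsd11b1 and Mme, had an inducible sum of 5302 CPM in WT and 13821 in KO (log2 ratio 1.38, 1.36 to 1.40). Cluster 3, led by Sfrp4 and Eln, had 3750 and 8317 (1.15), and cluster 4, which held Pi16, a marker of progenitor-like fibroblasts, had 3043 and 6778 (1.16). Cluster 10, led by Cyp2f2 and Clu, had 3246 and 4163 CPM, with a log2 ratio of 0.36 (0.31 to 0.41). Its HSP70 pair was at 853 and 1373 CPM, against 1323 and 5436 in cluster 1.

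**Figure D4:**
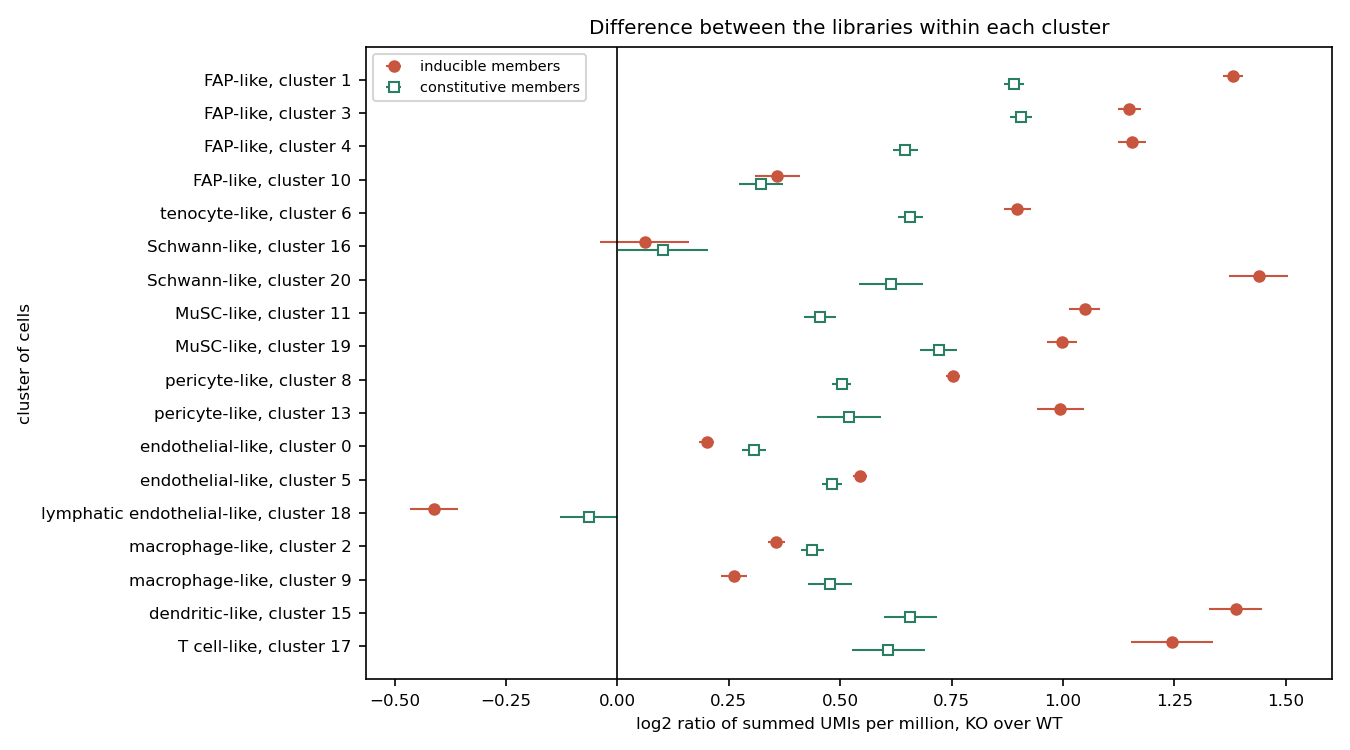
Log2 ratio of summed CPM, KO over WT, for the inducible (red circles) and constitutive (green squares) genes in each cluster of the named classes with at least 50 cells in each library. Bars are 95% intervals of counting error. FAP-like cluster 10 and Schwann-like cluster 16 lie at 0.36 and 0.06 for the inducible genes, where the other clusters of those classes lie between 1.15 and 1.44.

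The Schwann-like class showed the widest gap between clusters. Cluster 16, which held the myelin genes Mal and Mbp among its leading genes, had an inducible sum of 3686 CPM in WT and 3846 in KO (log2 ratio 0.06, -0.04 to 0.16). Cluster 20, led by Col20a1 and Bche without myelin genes among its leading genes, had 4566 and 12382 CPM (log2 ratio 1.44, 1.37 to 1.51). The class held 196 WT and 152 KO cells, of which 84 and 58 were in cluster 20. Hspb1 was lower in KO in both, at 360 and 101 CPM in cluster 16 and at 635 and 336 CPM in cluster 20.

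Among macrophage-like cells, cluster 9, led by genes of tissue-resident macrophages such as Folr2 and Cd163, had the higher levels. Its inducible sum was 14276 CPM in WT and 17114 in KO (log2 ratio 0.26, 0.23 to 0.29), and its Hspa1a level was 4862 and 4867 CPM. Cluster 2, led by Ccl3, Ms4a7 and Trem2, had 9907 and 12689 CPM (0.36, 0.34 to 0.38), and its Hspa1a level was 2710 and 3245 CPM. Among endothelial-like cells, cluster 5, which held the arterial genes Gja5 and Sema3g, had 15196 and 22164 CPM (0.54). Cluster 0, led by Aplnr, had 12219 and 14036 CPM (0.20).

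In FAP-like cells the libraries had the same median but different upper tails for the inducible genes. Among cells thinned to 1000 UMIs, the median was 3.0 inducible UMIs per cell in both libraries, whereas the mean was 3.95 in WT and 7.88 in KO. At least 21 inducible UMIs were found in 1.01% of WT cells (17 of 1685, 0.589 to 1.61) and in 9.99% of KO cells (216 of 2163, 8.75 to 11.3). The 10% of cells richest in these genes held 34.7% of the inducible UMIs in WT and 51.2% in KO. The variance over cells was 5.45 times the mean in WT and 21.6 times in KO. Counts this uneven mean that the counting intervals of the sums are narrower than the spread between cells.

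**Figure D5:**
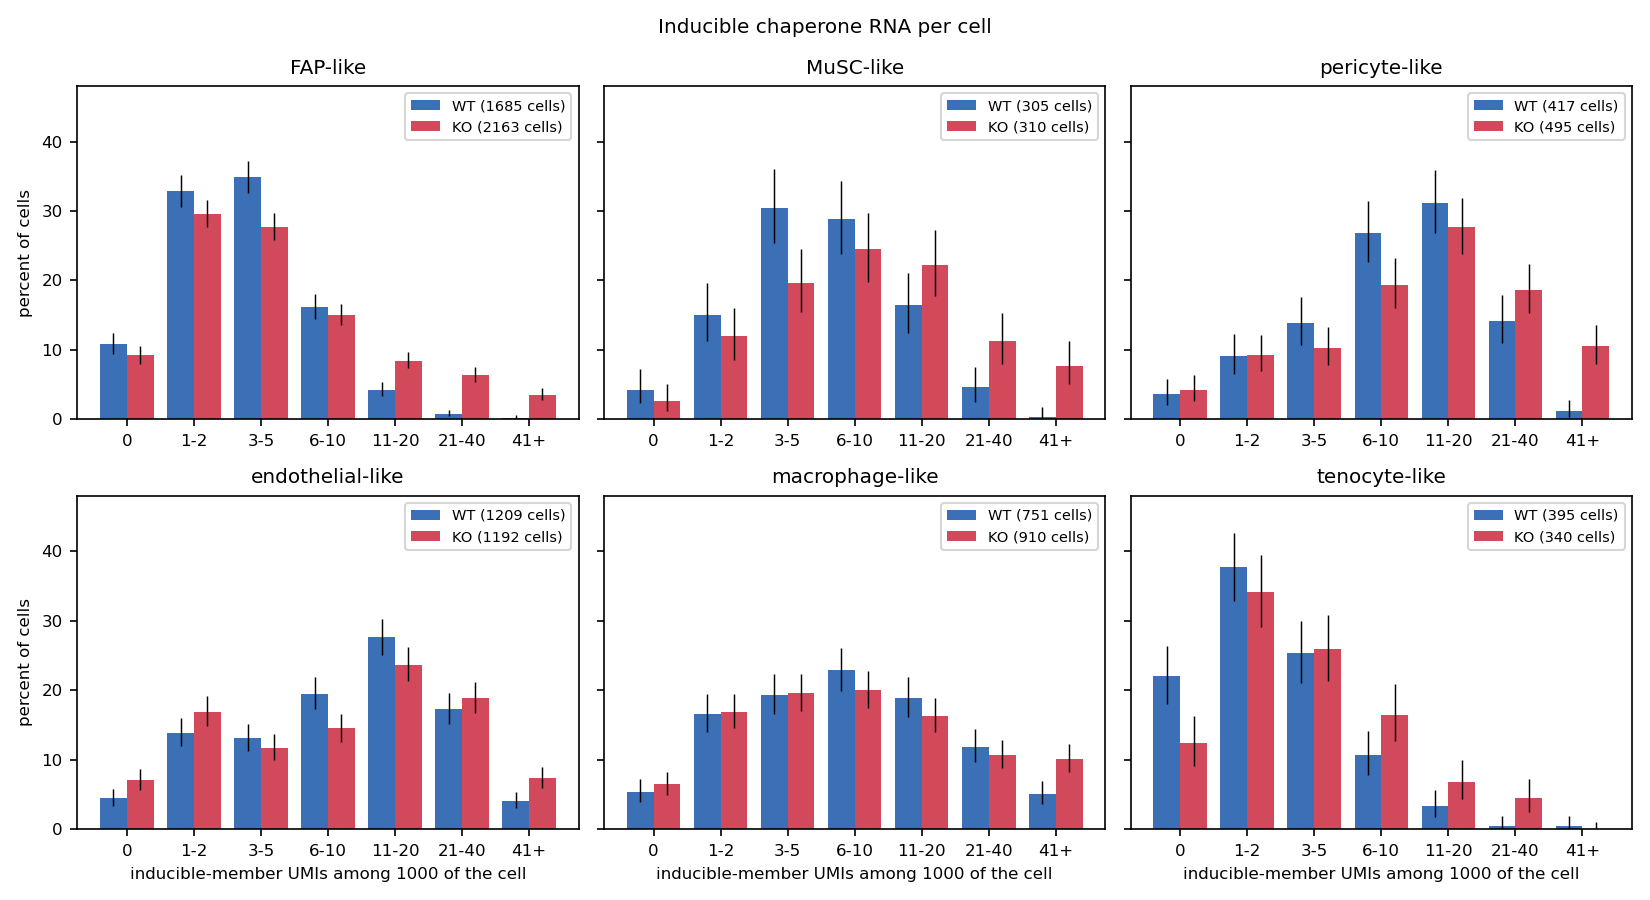
Percent of cells by the number of inducible-gene UMIs among 1000 UMIs drawn from each cell, in 6 classes, with WT in blue and KO in red. Bars are exact 95% binomial intervals. In FAP-like cells 9.99% of KO and 1.01% of WT cells have at least 21.

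The same upper tail was seen elsewhere. The share of cells with at least 21 inducible UMIs was higher in KO in 10 of 10 main classes, lymphatic endothelial-like cells included (5.88% in WT and 15.3% in KO, with overlapping intervals of 1.63 to 14.4 and 7.88 to 25.7). It was 4.92% and 19% in MuSC-like cells and 15.3% and 29.1% in pericyte-like cells. In endothelial-like cells it was 21.3% (19.06 to 23.76) and 26.2% (23.70 to 28.77), with intervals that just overlapped. Those of tenocyte-like cells, at 1.01% (0.277 to 2.57) and 4.41% (2.49 to 7.17), also overlapped. In macrophage-like cells it was 16.9% (14.3 to 19.8) and 20.8% (18.2 to 23.6), with overlapping intervals. The median per cell was higher in KO in 6 of the 10 classes, equal in 3 and lower in 1. In endothelial-like and macrophage-like cells it was 10.0 and 7.0 in both libraries.

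Constitutive genes were spread more evenly. In FAP-like cells their median was 4.0 UMIs among 1000 in WT and 5.0 in KO, and the richest 10% of cells held 25.1% and 30.5% of them. The variance was 2.23 and 5.43 times the mean. Hspb1 in these cells was found in 20.1% of WT (18.2 to 22.1) and 17.5% of KO cells (15.9 to 19.2), although its level was 329 CPM in WT and 723 in KO. Unthinned, the shares were 51.7% and 43.3%, at median depths of 7496 and 8283 UMIs.

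Detection of the HSP70 pair went with that of some other members. Of the thinned FAP-like KO cells with a UMI of Hspa1a or Hspa1b, 54.8% had Dnajb1, 41.9% had Hsph1 and 71.1% had Dnaja1. Of the KO cells without one, 32.0% had Dnajb1, 16.7% had Hsph1 and 54.8% had Dnaja1. In WT the contrast was smaller for Dnajb1, at 33.3% with and 25.6% without, and for Hsph1, at 26.3% and 15.9%. Hspd1 was at 19.9% with and 20.3% without in WT FAP-like cells. In WT MuSC-like cells Hspd1 was at 22.8% with and 31.3% without, and Hspe1 at 44.3% and 46.9%. Cells of 1 library share their source, so these are descriptions.

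Across the 20 profiles of class and library, the level of Hspa1a followed that of Hspa1b most closely among the members (Pearson r = 0.96 on log2(CPM + 10)), then Hsp90aa1 (r = 0.84). It followed Hspe1 least (r = 0.33). The level of Hspa8 followed Hsp90aa1 (r = 0.90) and Hsph1 (r = 0.90). Of the 7226 genes compared, those outside the list most like Hspa1a were Fcho2 (r = 0.82), Mef2c, Ednrb, Tbc1d22a and Ssu72, and those most like Hspa8 were Ube2d3 (r = 0.81), Raph1, Ier2, Sema6b and Tgoln1. The profiles share 2 libraries and the cells of each class.

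Other chaperones differed less between the libraries in FAP-like cells. Of the 4 genes of heat-shock factors and their binder, 0 were at least 1.5 times higher in KO, and Hsf1 was at 24.5 CPM in WT and 22.0 in KO (log2 ratio -0.15, -0.37 to 0.06). Of the other HSP70 and HSP110 genes, 0 of 8 with at least 10 UMIs in both libraries were higher or lower by that fold. Hspa9, the mitochondrial HSP70, had a log2 ratio of -0.37. Of the cytosolic chaperonin TRiC, 0 of 8 subunits were higher or lower, and Cct5 had a ratio of -0.34. Of 15 chaperones of the endoplasmic reticulum, 0 were higher and 1, Dnajb9 (288 and 184 CPM), was lower. In that class 3.86% of all genes tested were higher and 8.17% lower by 1.5-fold. Counts of 0 in lists this short lie near those shares.

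A few cytosolic partners were higher. The counts here stand beside 3.86% of all genes tested that were at least 1.5 times higher and 8.17% that were lower. Of the other HSP40 genes, 2 of 14 were at least 1.5 times higher and 1 lower. Dnaja4 was at 29.0 CPM in WT and 76.7 in KO (log2 ratio 1.40, 1.24 to 1.57), Dnajb5 had a ratio of 0.68, and Dnajc21 one of -0.76. Of 18 co-chaperones 2 were higher, Bag3, which couples HSP70 to autophagy (496 and 747 CPM), and Stip1, which passes clients from HSP70 to HSP90 (52.1 and 78.3 CPM). Of 3 other small heat-shock genes measured, Cryab (220 and 367 CPM) was higher and Hspb2 lower. Hsp90ab1, the constitutive cytosolic HSP90, was at 2058 and 2599 CPM, a log2 ratio of 0.34, and Trap1, its mitochondrial relative, had a ratio of -0.36.

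In endothelial-like and macrophage-like cells 1 of 18 and 1 of 17 co-chaperones were at least 1.5 times higher, beside 5.28% and 4.81% of all genes tested there. In T cell-like cells 6 of 15 co-chaperones were, beside 9.79% of all. They included Ahsa1, an activator of the HSP90 cycle (80.9 and 177 CPM, from 31 and 71 UMIs), and Stip1 (80.9 and 165 CPM), both named after their values were seen. In MuSC-like cells the 15 endoplasmic reticulum chaperones had a median log2 ratio of 0.28, beside 0.04 over all genes, and 3 were at least 1.5 times higher, beside 11.4% of all.

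Immediate-early genes, which cells also switch on during tissue dissociation, were set beside the chaperones. Their summed level was 14156 CPM in WT and 17078 in KO FAP-like cells, a log2 ratio of 0.27. It was 0.50 in MuSC-like, 0.38 in pericyte-like and 0.21 in endothelial-like cells. It was -0.16 in macrophage-like and -0.09 in T cell-like cells, where the inducible chaperones had ratios of 0.32 and 1.24. In FAP-like cells 3 of the 12 genes were at least 1.5 times higher in KO (3.86% of all genes tested), Btg2 (502 and 1109 CPM), Zfp36 (594 and 1129 CPM) and Ier2 (283 and 478 CPM). Their part in the chaperone difference was not tested.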

How the data were processed

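The authors prepared 1 library per genotype with a 10x 5′ kit and sequenced it on a NovaSeq. Cell Ranger 2.1.1 and build mm10 are named in the submitters' processing notes, and the methods name another version. The methods state that Seurat was used, that DoubletFinder doublets were removed and that cells with over 10% mitochondrial reads were dropped. The deposited values are the natural log of 1 plus the UMIs of a gene per 10000 of the cell, in 1 table of 13432 cells. The design text ties barcode endings to genotypes. The authors' comparisons were not in the table.

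Whole UMIs were recovered per cell by undoing the log. The largest distance from a whole UMI was 0.247 over 29528482 values, and 500 of 500 simulated cells were returned. Between the libraries 4 barcodes were shared, and 0 mitochondrial genes were listed. Cells were clustered in Seurat 5.3.0 (R 4.3.3) on 2000 variable genes, less 16 chaperone and immediate-early genes, with 30 principal components, a rewritten Harmony and resolution 0.8. Scrublet in scanpy 1.11.5 called 101 WT and 109 KO doublets, which stayed in. Classes were named from fixed markers. Leaving out red blood cell markers and a mean log2 fold of at least 0.5 were set after the clusters were seen. UMIs were summed per class and library. Intervals are exact Poisson for levels and exact binomial (Clopper-Pearson) for ratios and shares, at 95%. The ratio and its interval were tested on simulated data. With 1 library per group there is no test.

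All 10 members were named in every class with at least 50 cells in each library. From each list of other chaperones, genes named were among the 3 with the largest absolute log2 ratio in FAP-like cells at 50 UMIs or more in both libraries. Genes most like a member were the 5 with the highest Pearson r among genes at 20 CPM or more in at least 1 in 4 profiles. The members and the lists were chosen with earlier results of these data known. Alternatives were mean weighting over cells, centring, cell filters, clustering settings, members in the sum and a fold of 2.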

Additional observations from a re-analysis of the deposited data

Results flagged for a closer look

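With 1 library per genotype no difference between classes was tested. These results are listed because their KO over WT direction was opposite to that of most classes. In lymphatic endothelial-like cells the log2 ratio was -0.41 for the inducible sum, -0.065 for the constitutive sum, -0.57 for Hspa1a, -0.21 for Hspa1b, -0.55 for Hsp90aa1, -0.60 for Hspb1 and -0.11 for Hspa8. A single WT cell held 1175 of the 6676 inducible UMIs of that class, and the most any KO cell held was 462 of 4889. As a mean over cells the ratios were 0.15 and 0.10 for the inducible and constitutive sums.

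In neutrophil-like cells (24 WT and 33 KO cells, below the 50 asked of a main class) the log2 ratio was -0.66 for the inducible sum and -0.36 for the constitutive sum. It was -1.12 for Hspa1a, -0.95 for Hspa1b, -1.27 for Dnajb1, -0.30 for Hspa8, -1.50 for Hspd1 and -1.31 for Hspe1. In WT, 286 of the 421 inducible UMIs of that class were in 2 cells that Scrublet called doublets. Without Scrublet doublets the inducible ratio was 0.71, the opposite direction, and the constitutive ratio -0.03. Clustered without Harmony they were 0.81 and -0.05.

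Hspb1 stood apart from the other members in Schwann-like cells, at a log2 ratio of -1.14, and in T cell-like cells, at -0.69. The T cell-like value rested on 51 WT and 33 KO UMIs. The shares of T cell-like cells with a UMI of Hspb1 were close without thinning, at 10.98% in WT and 11.49% in KO.

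Cells of no named class, which entered only the values over all cells, had a log2 ratio of 0.79 for the inducible sum.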

How the results depend on the processing

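No paired analysis was possible because each genotype was 1 library, and for the same reason no library could be left out. The direction of the sums in FAP-like, MuSC-like, endothelial-like and macrophage-like cells was KO above WT in every setting tried, and the cause of the shifts was not tested. Values below are log2 ratios that moved by more than their counting interval. With the mean over cells, the inducible sum was 1.004 in FAP-like, 0.97 in MuSC-like and 0.21 in endothelial-like cells, and the constitutive sum 0.71, 0.51 and 0.26, and 0.48 in macrophage-like cells. Centred on the median gene, the inducible sum was 1.25, 0.997, 0.38 and 0.38 in FAP-like, MuSC-like, endothelial-like and macrophage-like cells, and the constitutive sum 0.86, 0.52, 0.41 and 0.50. Without Scrublet doublets, MuSC-like cells had 1.10 and 0.53. Clustered without Harmony, the inducible sum was 1.21 in FAP-like, 1.07 in MuSC-like and 0.47 in endothelial-like cells, and the constitutive sum 0.45 in MuSC-like and 0.49 in endothelial-like cells. At resolution 0.4 the inducible sum was 1.21 in FAP-like and 0.37 in macrophage-like cells, and the constitutive sum 0.45 in MuSC-like and 0.48 in macrophage-like cells. At resolution 1.2 macrophage-like cells had 0.39 and 0.48. Without Hspb1 the inducible sum was 1.08 in MuSC-like and 0.52 in endothelial-like cells. Without Hspa1a and Hspa1b it was 0.91, 0.78, 0.24 and 0.17 in FAP-like, MuSC-like, endothelial-like and macrophage-like cells. Leaving out cluster 19, a choice made after seeing the data, gave a constitutive sum of 0.45 in MuSC-like cells. The number of members at least 1.5 times higher in endothelial-like cells was 3 with the mean over cells, and at a 2-fold limit it was 1 there and 3 in macrophage-like cells.

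The other classes were recomputed after the data had been seen. In lymphatic endothelial-like cells the mean over cells turned the inducible sum to 0.15 and the constitutive sum to 0.10. In neutrophil-like cells the inducible sum turned to 0.71 without Scrublet doublets and to 0.81 without Harmony. In dendritic-like cells the inducible sum was 0.95 without Harmony and 0.94 at resolution 0.4, and the constitutive sum 0.48 and 0.53. In T cell-like cells the inducible and constitutive sums were 0.78 and 0.40 at resolution 0.4, and 1.63 and 0.81 for the mean over cells. In Schwann-like cells the inducible sum was 0.06 without cluster 20.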
